A study of Mus musculus with 36 samples.

Results

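C57BL/6J and DBA/2J are inbred mouse strains that differ at many DNA variants and are the parents of the BXD recombinant lines, a widely used panel for mapping traits of the brain and of alcohol response. C57BL/6J mice are known to drink alcohol readily and DBA/2J mice to avoid it. Known differences between the strains include DNA variants that change RNA levels, such as an intronic deletion in Gabra2 in C57BL/6J and a premature stop codon in Gpnmb in DBA/2J. The hippocampus, a cortical structure needed for spatial and episodic memory, was compared here between the strains in 12 libraries, 6 of each strain, out of 36 libraries of 6 inbred strains.

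Each library was made from both hippocampi of 1 mouse, and each strain gave 3 males and 3 females. No treatment is named in the labels. C57BL/6J males were 63 days old and females 64 days, and DBA/2J mice of both sexes were 62 days old, so strain and 1 or 2 days of age cannot be told apart. The mice came from the Jackson Laboratory and mice of both strains were housed in groups, per the labels' protocols. The labels name no preparation date or lane for a library.

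The C57BL/6J libraries held 14283060 to 23880351 counts. The DBA/2J libraries held 6493512 to 21607811, and 3 of them (male replicate 2, female replicates 2 and 3) were below 10000000. The number of genes with at least 1 count was 22850 ± 377 (SD, n = 6) in C57BL/6J and 21270 ± 1330 in DBA/2J. Counts of sex-linked genes matched the sex labels. Xist, which silences the second X of females, ran from 6738 to 19527 counts in the 6 females and reached at most 209 in the 6 males. On the Y chromosome, Ddx3y had 543 to 1298 counts in males and 0 in females. The 12 libraries separated by strain on the first principal component of log2 levels, which held 53.2% of their variance. DBA/2J male replicate 1 lay at 23 on that axis, between the other 5 DBA/2J libraries (47.9 to 67.2) and the C57BL/6J libraries, all below 0.

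Of 19702 genes with enough counts to test, out of 37315 in the tables, 7268 (36.9%) differed between the strains by edgeR's quasi-likelihood test at a Benjamini-Hochberg adjusted p under 0.05. In DBA/2J 3387 genes (17.2%) were higher and 3881 (19.7%) lower, and 1840 of the 7268 differed by over 2-fold. For 3776 of them the 6 DBA/2J libraries did not overlap the 6 C57BL/6J libraries. Over all tested genes 19.8% did not overlap, 8.7% with DBA/2J above and 11.1% with it below. Among 15516 protein-coding genes 2823 were higher and 2523 lower in DBA/2J. The median log2 difference over all tested genes was -0.02. Without the 3 shallow DBA/2J libraries 4762 genes passed, 4554 of them among the 7268.

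The balance between higher and lower genes depended on how levels were scaled. The authors' FPKM values, which divide by transcript length and library size, were used without further scaling between libraries. On them limma called 7148 genes (36.4% of those tested), 1230 higher (6.26%) and 5918 lower (30.1%). The median log2 difference over all genes moved to -0.15 there. After a correction of each library's trend on GC content and transcript length, 7567 genes passed (39.5%), 4736 higher (24.7%) and 2831 lower (14.8%). Before that correction the median log2 difference of protein-coding genes ran from -0.14 among the shortest transcripts to 0.11 among the longest, and from 0.13 at the lowest GC content to -0.10 at the highest, with the genes cut into 5 equal parts. What lies behind these trends was not tested.

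**Figure D1:**
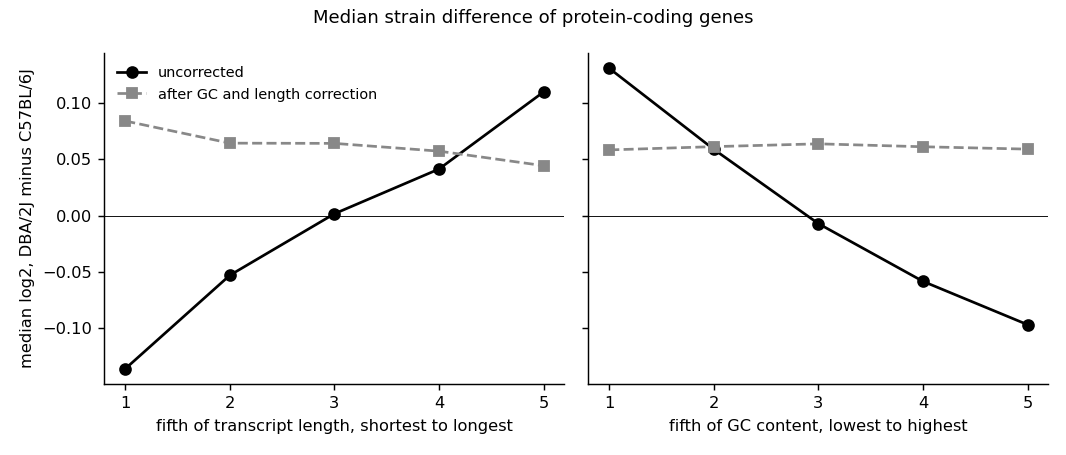
Median log2 difference (DBA/2J minus C57BL/6J) of protein-coding genes in 5 equal parts by transcript length (left) and by GC content (right), with solid lines for uncorrected counts and dashed lines after the GC and length correction. The uncorrected medians rose from -0.14 to 0.11 with length and fell from 0.13 to -0.10 with GC content, and the corrected medians lay between 0.04 and 0.08.

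The other 4 strains show which genes set C57BL/6J or DBA/2J apart from all of them. Fully separated levels were also common for certain pairs of strains. The 12 libraries of DBA/2J and PWD/Ph, a wild-derived strain whose mice were housed singly, stood apart from the other 24 in 515 genes, and those of A/J and C57BL/6J in 195. The related strains DBA/1J and DBA/2J, which descend from 1 stock, stood apart together in 67 genes. The 129S1/SvImJ and DBA/1J libraries did so in 216 genes, and no other pair in more than 88. Over the 7268 genes, the PWD/Ph mean lay nearer to that of DBA/2J than of C57BL/6J in 65.8%, and the DBA/1J mean in 38.2%. For 129S1/SvImJ the share was 31.4% and for A/J 20.7%. Of the 7268 genes, 195 separate A/J and C57BL/6J from the rest and 497 separate DBA/2J and PWD/Ph. Genes of either pair separate C57BL/6J from DBA/2J by definition. For A/J and C57BL/6J, 27 of 162 higher and 13 of 33 lower genes were protein-coding. For DBA/2J and PWD/Ph, 303 of 323 higher and 122 of 192 lower genes were. The part of shared handling in these pairs was not tested, and it cannot be told apart from strain without lanes or dates.

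**Figure D2:**
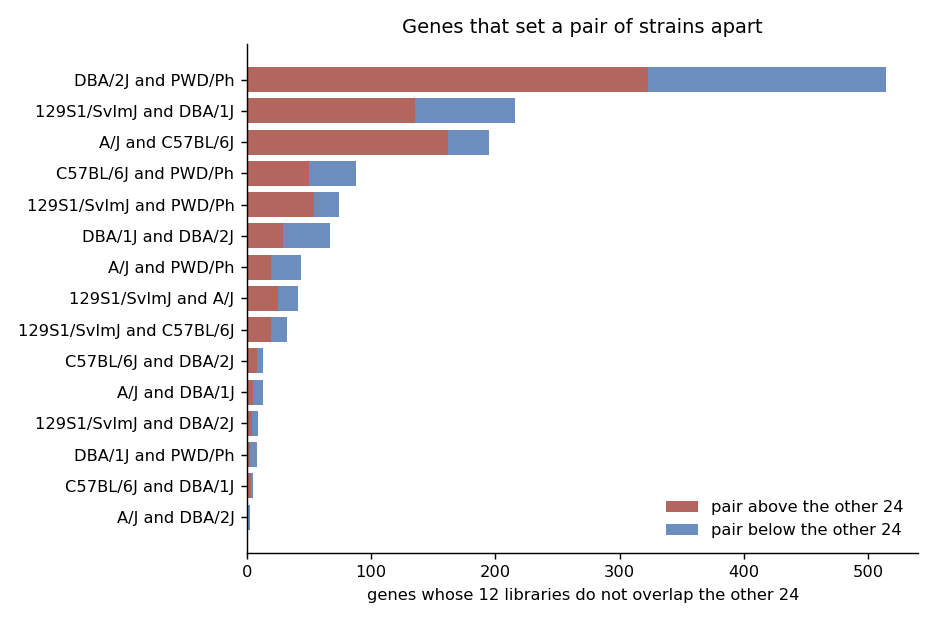
Number of genes (horizontal axis) whose 12 libraries of a pair of strains do not overlap the other 24 libraries, for all 15 pairs, with the pair above (red) or below (blue) the rest. DBA/2J with PWD/Ph had 515 such genes, 129S1/SvImJ with DBA/1J 216, A/J with C57BL/6J 195 and DBA/1J with DBA/2J 67.

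**Figure D3:**
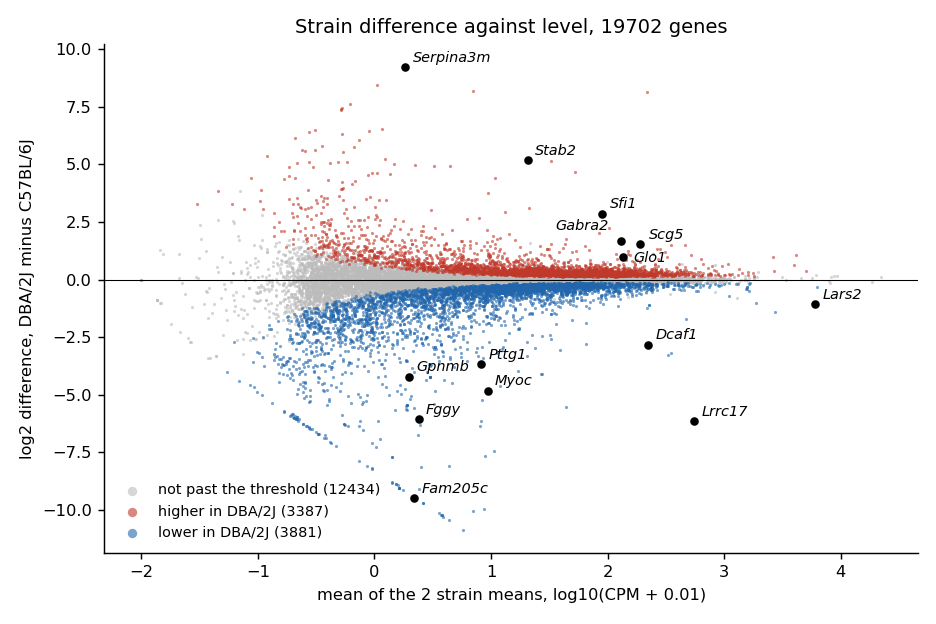
Log2 difference between the strains (vertical axis, DBA/2J minus C57BL/6J) against the mean level in CPM (counts scaled for library size) on a log10 axis, for 19702 genes. Red points (3387) are higher and blue points (3881) lower in DBA/2J, grey points did not pass the test, and named genes are black. The streak of blue points at the lower left holds genes with few counts in C57BL/6J and none or almost none in DBA/2J.

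The protein-coding gene with the largest fitted difference upward belongs to the serine protease inhibitor family. Levels are given as CPM, that is, counts divided by library totals that edgeR's TMM factors adjust. Serpina3m (ENSMUSG00000079012, GRCm38 chromosome 12, 104338486 to 104394257) had no count in any C57BL/6J library and 3.00, 3.68 and 4.28 CPM at the lowest, median and highest in DBA/2J. It was at least 149-fold higher in DBA/2J, against a floor of 3 counts over the 6 C57BL/6J libraries, with an edgeR adjusted p of 2.76e-12. The mean was 6.47 CPM in DBA/1J and 11.2 CPM in 129S1/SvImJ, and A/J and PWD/Ph were listed at 0.

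Serpina3m lies in a cluster of related genes that differed together. Serine protease inhibitors of clade A3 are secreted proteins, and Serpina3n is a known marker of reactive astrocytes. All 10 genes of a run of tested neighbours on chromosome 12, 104146382 to 104865076, were higher in DBA/2J (Serpina3c, Serpina3e-ps, Serpina3f, Serpina3g, Serpina3h, Serpina3i, Serpina3m, Serpina3n, Dicer1 and Clmn). Runs of at least 4 tested neighbours called in 1 direction numbered 105 in the genome, 41 higher and 64 lower. Near-identical copies in this family can share reads, so the level of each member is uncertain.

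Serpina3n (chromosome 12, 104406729 to 104414329) had 31.5, 33.0 and 40.8 CPM in C57BL/6J and 85.4, 95.1 and 103 CPM in DBA/2J, with no overlap. The difference was log2 1.47 ± 0.14 (SE, 6 against 6 libraries, edgeR adjusted p 7.12e-10). DBA/1J resembled DBA/2J in mean level (98.5 CPM), A/J resembled C57BL/6J (33.3 CPM) and 129S1/SvImJ was at 199 CPM. Serpina3i ran from 0 to 0.14 CPM in C57BL/6J and from 0.47 to 0.94 CPM in DBA/2J (log2 3.27 ± 0.49, and 3.88 without C57BL/6J female replicate 1). Serpina3g ran from 0.94 to 1.86 CPM in C57BL/6J and from 1.23 to 3.06 CPM in DBA/2J, which overlap (log2 0.86 ± 0.25), and its call ended on FPKM. Serpina3f had a median of 0.21 CPM in DBA/2J and 0 in C57BL/6J, and its call ended without C57BL/6J male replicate 1 or 3, C57BL/6J female replicate 1 or 3, or DBA/2J female replicate 1, and on FPKM plus 1.

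The promoters of 3 members are shown because the genes differ in the same direction. Their upstream sequences are not identical but share stretches, such as agagcacagctt. They come from RefSeq (GRCm38.p6), with 250 bases before and 50 after the annotated start, plus strand, and are reference sequence, which derives from C57BL/6J. Capitals mark matches to TTCNNNGAA, a palindromic motif bound by STAT factors, searched on both strands. It occurs in 8.3% of the 32851 promoters of that table. Serpina3g (chr12:104235897-104236196) and Serpina3i (chr12:104262872-104263171) each hold 1 match and Serpina3n (chr12:104406458-104406757) holds 0, which says nothing of binding.
Serpina3g: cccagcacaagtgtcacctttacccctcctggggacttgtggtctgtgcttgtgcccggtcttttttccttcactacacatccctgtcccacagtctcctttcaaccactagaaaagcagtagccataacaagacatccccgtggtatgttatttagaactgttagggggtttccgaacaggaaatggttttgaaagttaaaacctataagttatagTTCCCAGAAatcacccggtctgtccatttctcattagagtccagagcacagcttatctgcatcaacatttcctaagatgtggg
Serpina3i: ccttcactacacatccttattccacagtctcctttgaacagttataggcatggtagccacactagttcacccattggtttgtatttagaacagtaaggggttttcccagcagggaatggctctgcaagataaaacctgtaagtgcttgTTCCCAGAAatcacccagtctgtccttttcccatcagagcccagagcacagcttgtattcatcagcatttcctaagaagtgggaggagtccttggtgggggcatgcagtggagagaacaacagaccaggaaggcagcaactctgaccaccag
Serpina3n: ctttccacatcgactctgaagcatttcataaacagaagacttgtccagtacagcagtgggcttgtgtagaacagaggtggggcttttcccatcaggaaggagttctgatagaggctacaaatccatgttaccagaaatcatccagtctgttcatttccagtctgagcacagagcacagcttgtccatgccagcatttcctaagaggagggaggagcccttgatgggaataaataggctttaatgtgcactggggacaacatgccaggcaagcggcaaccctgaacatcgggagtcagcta

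Stab2, a scavenger receptor that takes up hyaluronan and is best known from the endothelium of liver and spleen, was far higher in both DBA strains than in the other 4. Stab2 (ENSMUSG00000035459, chromosome 10, 86841198 to 87008025) had 0.78, 1.20 and 1.34 CPM in C57BL/6J and 27.7, 39.8 and 54.7 CPM in DBA/2J, with no overlap. The difference was log2 5.19 ± 0.20, or 36.5-fold, with an edgeR adjusted p of 1.14e-19. DBA/1J was at 45.3 CPM and the other 3 strains between 0.43 and 1.5 CPM.

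Other genes that set both DBA strains above the rest were chosen after their values were seen. They include Ucp2, an uncoupling protein of the inner mitochondrial membrane, which ran from 12.1 to 28.8 CPM in C57BL/6J and from 36.4 to 52.6 CPM in DBA/2J (log2 1.04 ± 0.14). Zfp949, a zinc finger gene, rose from 21.8 to 64.0 CPM in mean level, the chemokine gene Ccl6 from 1.34 to 4.13 CPM, and Mlycd, which encodes malonyl-CoA decarboxylase, from 14.6 to 26.2 CPM. In each the 12 libraries of both DBA strains lay above the other 24.

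Both DBA strains stood below the rest in Nudt19, a hydrolase of coenzyme A. Nudt19 (chromosome 7, 35547185 to 35556304) had 36.1, 38.6 and 39.2 CPM in C57BL/6J and 13.7, 17.3 and 19.5 CPM in DBA/2J, with no overlap (log2 -1.14 ± 0.07, edgeR adjusted p 5.36e-14). Nudt19 was at 13.6 to 16.8 CPM in the DBA/1J libraries and at 34.7 to 51.3 CPM in those of the other 3 strains. Fggy, a carbohydrate kinase gene, fell from 4.72 to 0.04 CPM (log2 -6.07 ± 0.34), with 0.35 CPM in DBA/1J. Without DBA/2J male replicate 1 or female replicate 1 that difference was -7.59 or -8.09, with almost no count left in DBA/2J. Sspn, a member of the dystrophin complex, fell from 14.9 to 6.23 CPM. Fam205c, which lies in a region of chromosome 4 with copies of its family, had no count in any DBA/2J library and 3.56 to 5.61 CPM in C57BL/6J, which is at least 115-fold lower against 3 counts over the 6 DBA/2J libraries.

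**Figure D4:**
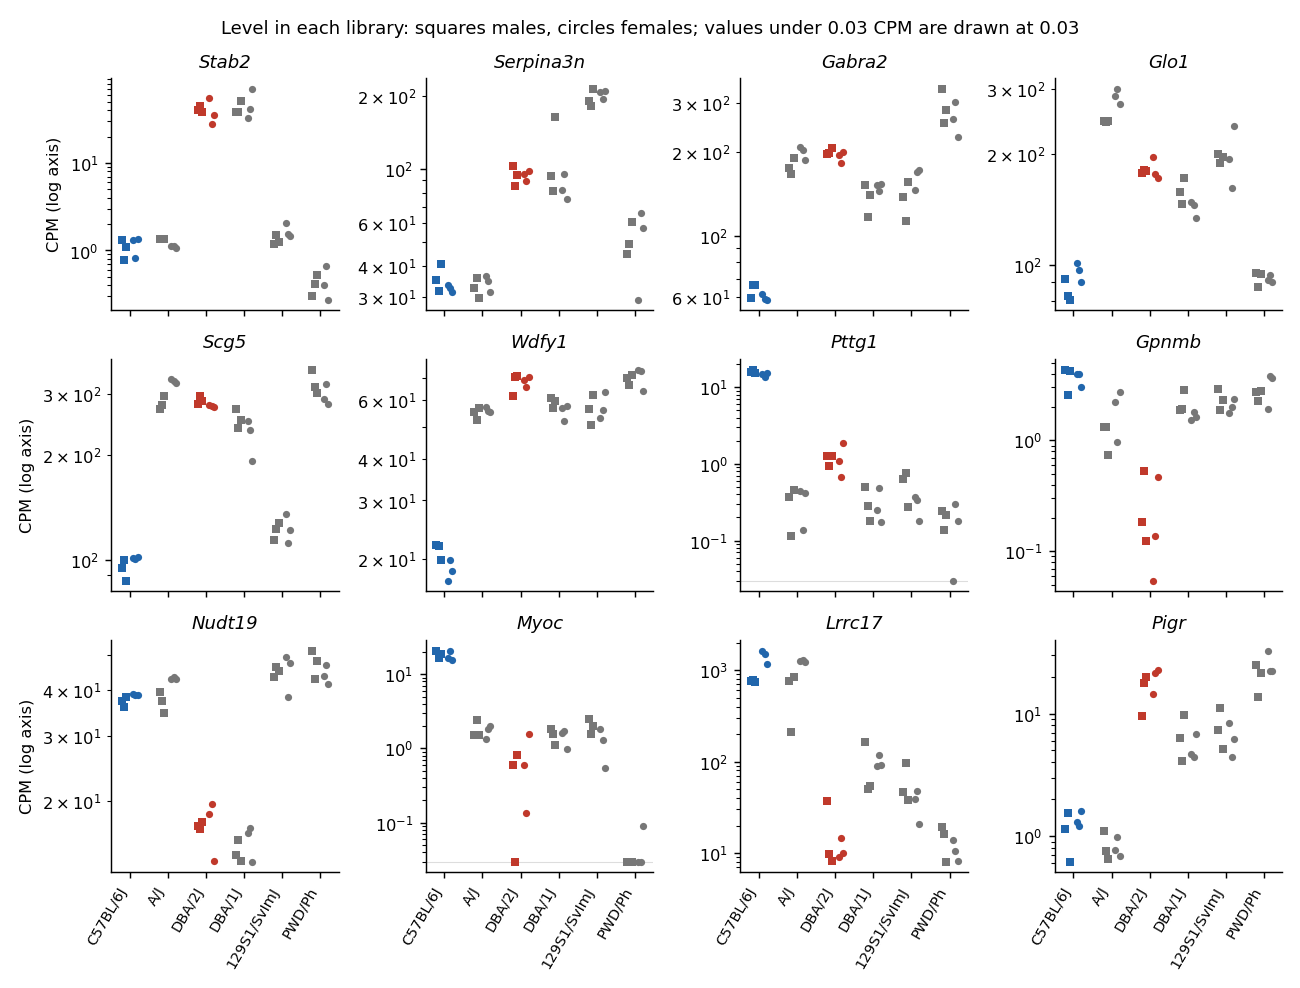
Level of 12 genes in each of the 36 libraries, in CPM on log axes that do not start at 0, with squares for males, circles for females, blue for C57BL/6J, red for DBA/2J and grey for the other strains. Stab2 is high and Nudt19 low in both DBA strains, Gabra2, Wdfy1 and Scg5 are lowest in C57BL/6J, Pttg1 and Myoc are highest in C57BL/6J, Gpnmb is lowest in DBA/2J, and Lrrc17 is high in C57BL/6J and A/J together.

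C57BL/6J stood apart from all other strains in 136 genes, 80 higher and 56 lower. The list of genes with known variants between C57BL/6J and DBA/2J, which was drawn up with earlier results of these data known, holds several of them. Of its 19 tested members of 22, 8 were higher and 6 lower in DBA/2J. The counts were 10 and 7 after the GC and length correction, 6 and 7 on FPKM, and 7 and 5 without the 3 shallow libraries.

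Gabra2 encodes the alpha 2 subunit of the GABA-A receptor, the chloride channel that carries fast inhibition and is the target of benzodiazepines. Gabra2 (ENSMUSG00000000560, chromosome 5, 70957597 to 71095849) had 58.7, 60.5 and 66.3 CPM in C57BL/6J and 183, 197 and 207 CPM in DBA/2J, with no overlap. The difference was log2 1.67 ± 0.08, or 3.18-fold, with an edgeR adjusted p of 6.78e-17. The other 4 strains had means of 143 to 278 CPM.

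Glo1, glyoxalase 1, detoxifies methylglyoxal and lies in a segment of chromosome 17 that is duplicated in some inbred strains. Its levels were 80.6, 90.9 and 101 CPM in C57BL/6J and 172, 178 and 196 CPM in DBA/2J, with no overlap (log2 1.00 ± 0.06, edgeR adjusted p 8.6e-14). A/J, 129S1/SvImJ and DBA/1J had means of 150 to 265 CPM and PWD/Ph had 92.1 CPM. Its neighbour Btbd9 overlapped between the strains (log2 0.19 ± 0.06), and its call ended on FPKM and without the 3 shallow libraries, with an edgeR adjusted p of 0.16 in the latter.

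Alad, the second enzyme of haem synthesis, Hdhd3 and Bspry are close neighbours on chromosome 4 (62480053 to 62519918). Alad had 5.93, 6.87 and 8.01 CPM in C57BL/6J and 13.2, 16 and 19.8 CPM in DBA/2J (log2 1.25 ± 0.09). Hdhd3 had 2.62, 3.17 and 3.60 CPM in C57BL/6J and 6.15, 8.06 and 11 CPM in DBA/2J (log2 1.49 ± 0.14), and Bspry rose from a mean of 0.50 to 3.02 CPM (log2 2.56 ± 0.20). All 3 were separated between the strains, and in PWD/Ph Alad and Hdhd3 (4.83 and 3.24 CPM) lay near the C57BL/6J means while Bspry (2.88 CPM) lay near that of DBA/2J.

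Wdfy1, an adaptor of endosomal signalling, had 17.2, 19.9 and 22 CPM in C57BL/6J and 61.9, 69.7 and 70.9 CPM in DBA/2J, with no overlap (log2 1.77 ± 0.06, edgeR adjusted p 1.07e-20). In the other 4 strains its mean was 55.4 to 69.9 CPM. Scg5, the chaperone 7B2 of the prohormone convertase PC2, was also lowest in C57BL/6J, at 87.0 to 102 CPM against 274 to 296 CPM in DBA/2J (log2 1.53 ± 0.06). Lpl, lipoprotein lipase, rose from a mean of 88.8 to 208 CPM and Col11a1, a fibrillar collagen chain, from 5.75 to 22.8 CPM.

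Pttg1 encodes securin, the inhibitor of separase that delays the parting of sister chromatids until anaphase. Pttg1 (chromosome 11, 43420250 to 43426251) had 13.7, 15.3 and 16.8 CPM in C57BL/6J and 0.68, 1.17 and 1.89 CPM in DBA/2J, with no overlap (log2 -3.69 ± 0.22, edgeR adjusted p 1.9e-14). The means of the other 4 strains were 0.18 to 0.43 CPM. Myoc, myocilin, a secreted glycoprotein linked to glaucoma in humans, had 15.4 to 20.7 CPM in C57BL/6J and 0 to 1.57 CPM in DBA/2J (log2 -4.83 ± 0.28), with the other strains at 0.02 to 1.76 CPM. The unconventional myosin gene Myo7a fell from 21.8 to 2.99 CPM and the interferon-inducible gene Mndal from 3.56 to 0.10 CPM (log2 -4.74, or -6.75 without DBA/2J female replicate 1).

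DBA/2J stood apart from all other strains in 151 genes, 71 higher and 80 lower. Gpnmb, a transmembrane glycoprotein of melanosomes and macrophages, had 2.59, 3.98 and 4.33 CPM in C57BL/6J and 0.05, 0.16 and 0.54 CPM in DBA/2J, with no overlap (log2 -4.23 ± 0.35, edgeR adjusted p 3.8e-11). Its mean in DBA/1J was 1.94 CPM, and without the 3 shallow libraries the difference was -5.21. Rpl29, a protein of the large ribosomal subunit with many processed pseudogenes, fell from 56.3 to 9.16 CPM, so its level is uncertain. Nat8f4, an N-acetyltransferase gene, fell from 13.3 to 1.46 CPM and Entpd2, an enzyme that hydrolyses extracellular ATP, from 6.63 to 2.85 CPM. Among those highest in DBA/2J, Cdh24, a cadherin, rose from 5.40 to 18.7 CPM and Prokr2, a prokineticin receptor, from 6.45 to 13.3 CPM.

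Of the other members of the variant list, Nnt, the mitochondrial transhydrogenase that carries a deletion in C57BL/6J, was at 15.3 to 19.2 CPM in C57BL/6J and 17.3 to 24.7 CPM in DBA/2J, which overlap (log2 0.33 ± 0.07), and its call ended on FPKM. Entpd4, whose sequence has a near-identical copy, fell from 51.0 to 27.7 CPM (log2 -0.88 ± 0.07, edgeR adjusted p 1.47e-11), with a mean of 27.8 to 32.3 CPM in the other strains. Ahr, the aryl hydrocarbon receptor, rose from 12.1 to 16.2 CPM (log2 0.43 ± 0.09), and its call ended on FPKM too. Mpdz, a scaffold protein mapped to alcohol withdrawal in mice, had log2 -0.23 ± 0.08 in overlapping groups, and its call ended without the 3 shallow libraries, after thinning to the shallowest library, and without C57BL/6J female replicate 3 or DBA/2J male replicate 2 alone. Myo5a (log2 -0.13 ± 0.08), Kcnj9 (0.07 ± 0.07), Fgfbp3 (-0.07 ± 0.14), Fscn2 (-0.76 ± 0.48) and Tyrp1 (1.24 ± 0.52) did not pass. The value of Tyrp1 was 0.22 ± 0.92 without DBA/2J female replicate 1. After the GC and length correction Myo5a (-0.29, edgeR adjusted p 3.14e-05), Kcnj9 (0.18, adjusted p 0.027) and Tyrp1 (1.27, adjusted p 0.0492) passed. Hc, Taar1 and Klrd1 had too few counts to test.

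Several large differences had the pattern of a strain pair rather than of 1 strain. Lrrc17, a secreted leucine-rich repeat protein, had 748, 972 and 1633 CPM in C57BL/6J and 8.24, 9.92 and 37.3 CPM in DBA/2J, with no overlap (log2 -6.16 ± 0.40, edgeR adjusted p 1.49e-13). A/J was at 929 CPM and the other 3 strains at 12.7 to 94.7 CPM. Dcaf1, a substrate receptor of a cullin ubiquitin ligase, fell from 395 to 53.6 CPM (log2 -2.83 ± 0.09), with 403 CPM in A/J and 45.4 to 64.4 CPM in the other 3. The part of shared handling of the A/J and C57BL/6J libraries in these values was not tested. Without that pattern, Lars2, mitochondrial leucyl-tRNA synthetase, had 7136, 8325 and 9348 CPM in C57BL/6J and 3326, 3811 and 4483 CPM in DBA/2J, with no overlap (log2 -1.07 ± 0.11), and 4236 to 7248 CPM in the other strains.

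In the other direction Pigr, the polymeric immunoglobulin receptor, had 0.62, 1.26 and 1.59 CPM in C57BL/6J and 9.46, 18.8 and 22.5 CPM in DBA/2J (log2 3.78 ± 0.26). The lowest DBA/2J library lay below the highest of DBA/1J (9.64 CPM) and of 129S1/SvImJ (11.1 CPM). DBA/2J and PWD/Ph thus did not stand fully apart from the rest in Pigr. By mean level PWD/Ph was at 22.8 CPM, DBA/1J and 129S1/SvImJ at 6.00 and 7.10 CPM and A/J at 0.82 CPM. Klk14, a kallikrein protease, followed the same order, with means of 0.94 CPM in C57BL/6J, 20.6 CPM in DBA/2J and 25.1 CPM in PWD/Ph (log2 4.42 ± 0.34). Sfi1, a centrosomal protein whose gene has partial copies in the mouse genome, rose from 22.3 to 158 CPM (log2 2.85 ± 0.10), with 117 CPM in PWD/Ph and 19.7 to 41.1 CPM in the rest. The part of handling shared with PWD/Ph was not tested here either.

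Small nucleolar RNAs (snoRNAs) guide chemical modification of other RNAs. Of 220 tested snoRNA genes 39 (17.7%) were higher and 109 (49.5%) lower in DBA/2J, against 17.2% and 19.7% of all genes. Of the 22 genes with at least 2 CPM in C57BL/6J and no count in any DBA/2J library, 17 were snoRNA genes. On chromosome 7, in the imprinted region that corresponds to the human Prader-Willi region, runs of 17 and 11 neighbouring genes were lower (59673461 to 59761647 and 59766611 to 59897254). Among snoRNA genes with an identical copy 39 of 45 were lower and 0 higher, and among those without one 70 of 175 were lower and 39 higher.

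The sequences of 2 such RNAs are shown because their copies are identical, so that a read cannot tell one gene from another. They are GENCODE M21 transcripts (GRCm38, minus strand), with capitals on ATGATGA and on the last CTGA, the letters of the C and D boxes that define this class. The first is shared letter for letter by Gm25471 (chr7:59761554-59761647), Gm26032 (chr7:59741373-59741466), Gm22046 and Gm25210, and differs from Snord116l9 at 3 of 94 bases. The second is shared by Gm24926 (chr7:59477493-59477571) and Gm22632.
Gm25471: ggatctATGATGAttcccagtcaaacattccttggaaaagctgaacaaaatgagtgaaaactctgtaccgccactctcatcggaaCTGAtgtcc
Gm24926: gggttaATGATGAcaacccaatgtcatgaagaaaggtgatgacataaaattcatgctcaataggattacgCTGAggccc

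Gm25471 had 5.44, 6.62 and 12.7 CPM in C57BL/6J and no count in any DBA/2J library, at least 198-fold lower against 3 counts over the 6 libraries. A/J was at 6.83 CPM, DBA/1J at 0.01 CPM, and 129S1/SvImJ and PWD/Ph were listed at 0. Gm22255, another snoRNA of the region, had 5.13 to 10.9 CPM in C57BL/6J, 8.33 CPM in A/J and no count in DBA/2J. These copies thus had counts in the A/J and C57BL/6J libraries and almost none elsewhere, and the part of how reads that match several places were counted was not tested. Snord49a, a snoRNA on chromosome 11 with no identical copy among the tested genes, had 8.40, 12.9 and 21.5 CPM in C57BL/6J and 0.44, 0.95 and 4.55 CPM in DBA/2J, with no overlap (log2 -3.31 ± 0.44), and 53.3 CPM in DBA/1J. Without DBA/2J male replicate 1 the difference was -4.05 ± 0.49, and after the GC and length correction -2.49.

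Other multi-copy classes were lower as well. Processed pseudogenes, which are copies of messenger RNAs, were lower in 729 of 1369 tested (53.3%) and higher in 124 (9.06%). Over all genes 19.7% were lower and 17.2% higher. The median log2 difference of the processed pseudogenes was -0.62. They took 1.78% ± 0.03 of the counts in C57BL/6J and 1.40% ± 0.07 in DBA/2J (SD, n = 6 each, exact two-sided permutation p 0.00216, the smallest that 6 against 6 allows, Benjamini-Hochberg adjusted 0.0054 over 5 library properties). The share of snoRNA counts was 0.0417% ± 0.0079 against 0.0222% ± 0.0030 with the same p. The share of mitochondrial counts was 11.2% ± 1.09 against 11.4% ± 0.512 (exact permutation p 0.745). On chromosome 4 a run of 9 genes (41893278 to 42158839) and one of 10 (42206998 to 42589938) were lower in DBA/2J. The first holds the predicted genes Gm21541 and Gm13304, with means of 3.67 and 3.63 CPM in C57BL/6J and of 0.08 CPM each in DBA/2J, and reads of such near-identical neighbours cannot be told apart here. Their log2 differences were -5.66 and -5.64, and -7.44 and -7.42 without DBA/2J female replicate 3, -7.45 and -7.43 without DBA/2J male replicate 3, and -7.33 and -7.31 without the 3 shallow libraries. Rpsa, the laminin receptor of the small ribosomal subunit, was at 157 to 186 CPM against 74.6 to 80.6 CPM (log2 -1.13 ± 0.08), and processed copies make its level uncertain.

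Most markers of myelinating oligodendrocytes were lower in DBA/2J. Of 18 tested markers 12 were lower and 0 higher, against 19.7% and 17.2% of all genes, with a median log2 difference of -0.40. The count was 13 after the GC and length correction, 17 on FPKM and 7 without the 3 shallow libraries. Mal, a proteolipid of compact myelin, had 203, 232 and 273 CPM in C57BL/6J and 136, 153 and 161 CPM in DBA/2J, with no overlap (log2 -0.63 ± 0.11, edgeR adjusted p 2.87e-05). Mag, a myelin adhesion protein, had 88.6, 105 and 125 CPM against 57.5, 68.5 and 73.3 CPM (log2 -0.66 ± 0.13), and Mog, a surface glycoprotein of myelin, had 45.7, 53.5 and 70.3 CPM against 30.2, 36 and 40.7 CPM (log2 -0.66 ± 0.12). The summed level of the 18 markers was 5131 to 6314 CPM in C57BL/6J and 3774 to 4558 CPM in DBA/2J, with no overlap. In bulk tissue, fewer cells of a type and less RNA per cell cannot be told apart.

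Most microglial markers that passed were lower too, among them genes of complement component C1q. Of 18 tested, 10 were lower and 1 higher, against 19.7% and 17.2% of all genes, with a median log2 difference of -0.31. The higher one was P2ry12 (log2 0.35 ± 0.12), and no member was called higher on FPKM or without the shallow libraries. After the GC and length correction 8 were lower and 3 higher, where 14.8% of all genes were lower and 24.7% higher. Fcrls, an Fc receptor-like protein used to mark resident microglia, had 16.9, 19.8 and 21.7 CPM in C57BL/6J and 3.08, 4.94 and 5.67 CPM in DBA/2J (log2 -1.98 ± 0.13, edgeR adjusted p 1.36e-13). Its means in the other strains were 2.87 to 6.72 CPM. C1qb had 21.2, 22.8 and 24.1 CPM against 8.43, 9.16 and 11.7 CPM (log2 -1.24 ± 0.10), and C1qc went from 20.1 to 9.14 CPM (log2 -1.10 ± 0.13). All 3 were separated between the strains. Complement genes, a list that shares the C1q genes, had 7 of 16 lower and 0 higher, and 4 lower after the correction. The summed microglial level was 408 to 457 CPM against 340 to 377 CPM.

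Astrocyte, interneuron and principal neuron markers passed in both directions. Over all genes 17.2% were higher and 19.7% lower, and 24.7% and 14.8% after the GC and length correction. On FPKM each of these lists had 1 higher and 8 lower, where 6.26% of all genes were higher and 30.1% lower. Among 15 astrocyte markers 2 were higher and 4 lower, with Gja1, the gap junction protein connexin 43, up from 280 to 365 CPM (log2 0.38 ± 0.06) and the glycolytic enzyme gene Aldoc down from 467 to 350 CPM (log2 -0.42 ± 0.06). Among 20 interneuron markers 3 were higher and 5 lower (2 and 3 without the shallow libraries, 4 and 2 after the GC and length correction). Vip, vasoactive intestinal peptide, had 9.03, 9.51 and 11.6 CPM in C57BL/6J and 14.6, 15.4 and 17.2 CPM in DBA/2J (log2 0.67 ± 0.09), and Cort, cortistatin, fell from 3.95 to 0.96 CPM (log2 -2.01 ± 0.23). The call of Sst, somatostatin (log2 -0.50 ± 0.12), ended after the GC and length correction, with an edgeR adjusted p of 0.455. Among 20 pyramidal and granule neuron markers 5 were higher and 4 lower (4 and 2 without the shallow libraries, 5 and 2 after the correction). The higher ones include Map3k15 (log2 0.47 ± 0.08) and Neurod2 (0.39 ± 0.08). C1ql2, a synaptic organiser of dentate granule cells, had 33.0, 52.6 and 65.2 CPM against 16.7, 18.9 and 19.8 CPM, with no overlap (log2 -1.44 ± 0.15).

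Markers of tissue at the edge of the dissection varied between libraries. Of 18 choroid plexus markers 0 passed by edgeR, 0 by DESeq2 and 0 had an unadjusted p under 0.05, and their summed level ran from 684 to 4109 CPM in C57BL/6J and from 223 to 5758 CPM in DBA/2J. Meningeal fibroblast markers had 2 of 15 lower, and their sum ran from 218 to 368 CPM in C57BL/6J and from 129 to 520 CPM in DBA/2J. Ptgds, prostaglandin D2 synthase, which choroid plexus, meninges and oligodendrocytes express, was at 246 to 378 CPM against 67.8 to 212 CPM (log2 -1.25 ± 0.35), and the part of dissection in it was not tested. Haemoglobin genes were lower in DBA/2J, with 4 of 6 erythrocyte genes past the test and 2 after the correction. Those 2 were Hbb-bs (corrected log2 -0.75) and Hbb-bt (-1.16), while Hba-a1 (-0.22) and Hba-a2 (-0.39) no longer passed. Hbb-bs had 60.6, 70.4 and 102 CPM in C57BL/6J and 22.5, 33.8 and 46.3 CPM in DBA/2J (log2 -1.14 ± 0.18). The parts of residual blood and of aligning DBA/2J reads to a genome that derives from C57BL/6J were not tested. Gh, growth hormone, had 39.8 CPM in 1 C57BL/6J male, 11.2 CPM in a second, 0 to 0.76 CPM in the other 4 C57BL/6J libraries and no count in DBA/2J, and its call ended without the 3 shallow libraries, with only the 12 libraries in the fit, by DESeq2's test, and without C57BL/6J female replicate 2 or 3.

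**Figure D5:**
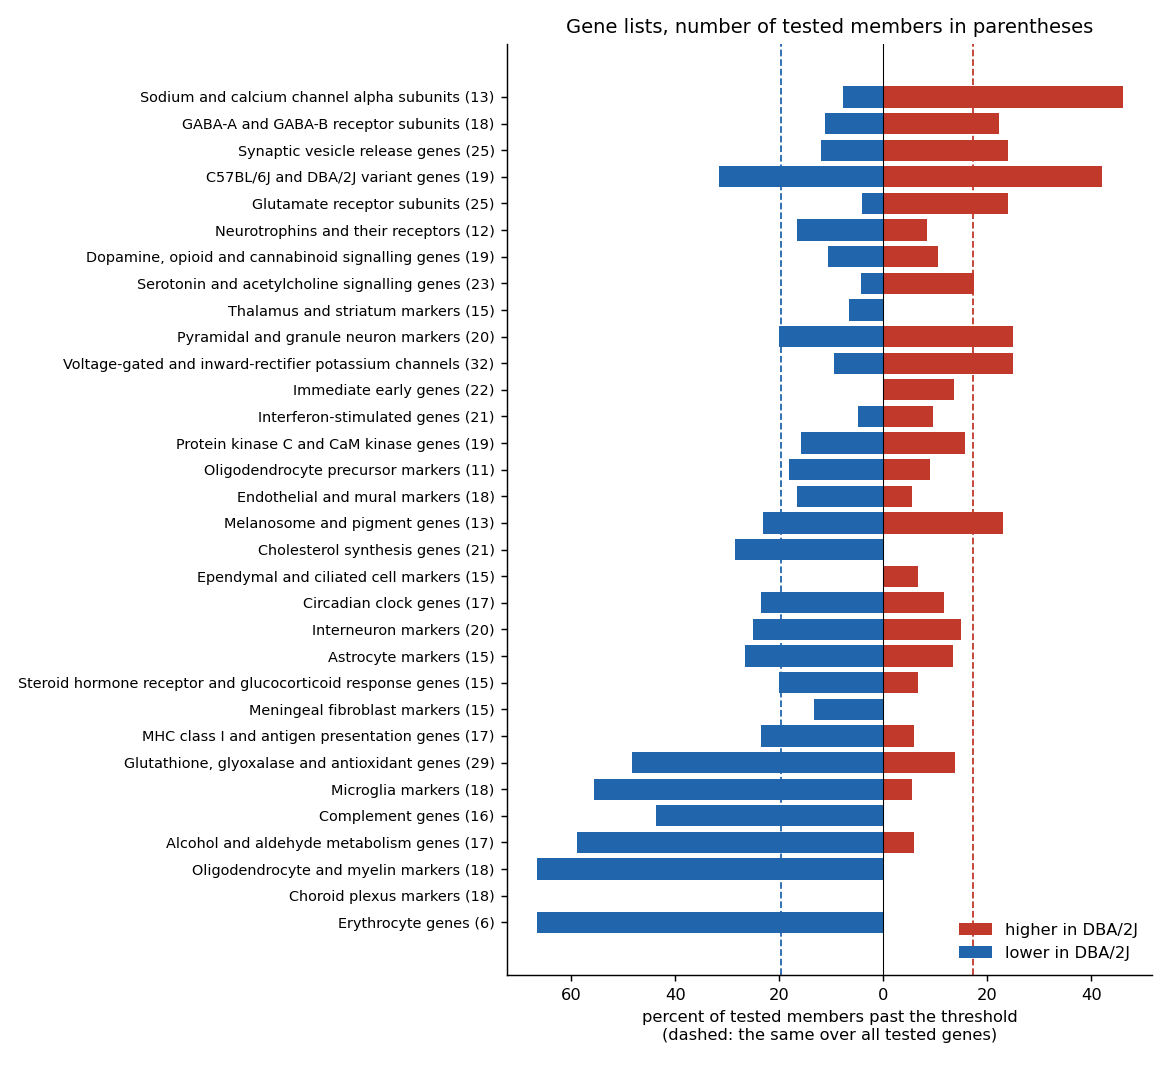
Percent of tested members of each gene list with at least 6 of them that were higher (red, right) or lower (blue, left) in DBA/2J at an adjusted p under 0.05, sorted by the list's median log2 difference. Dashed lines mark the same percentages over all tested genes (17.2 higher, 19.7 lower). Myelin, microglial, erythrocyte, alcohol and antioxidant lists extend furthest to the left and the sodium and calcium channel list furthest to the right.

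Enzymes that clear alcohols and aldehydes were mostly lower in DBA/2J, and a link to alcohol drinking was not tested. Of 17 tested genes 10 were lower and 1 higher, against 19.7% and 17.2% of all genes, with a median log2 difference of -0.37. The count of lower genes was 10 after the correction, 11 on FPKM and 10 without the shallow libraries. Aldh7a1, which oxidises aldehydes of lysine breakdown, had 51.4, 54.1 and 56.8 CPM in C57BL/6J and 23.5, 26.8 and 28.5 CPM in DBA/2J, with no overlap (log2 -1.02 ± 0.05, edgeR adjusted p 1.02e-15). Its means in the other strains were 22.4 to 31.6 CPM. Aldh1a1, a retinaldehyde and acetaldehyde dehydrogenase, had 32.4, 34.3 and 38.0 CPM against 19.7, 22.5 and 24.5 CPM (log2 -0.62 ± 0.07). Cyp2e1, the ethanol-inducible cytochrome P450, had 11.4, 15.8 and 19.4 CPM against 2.83, 4.18 and 11.1 CPM (log2 -1.55 ± 0.21), and Cat, catalase, fell from 39.5 to 29.5 CPM. None of these 4 overlapped between the strains.

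Glutathione and antioxidant genes were lower in 14 of 29 and higher in 4, against 19.7% and 17.2% of all genes. After the GC and length correction 6 were lower and 8 higher, where 14.8% of all genes were lower and 24.7% higher. Without the shallow libraries 9 were lower and 4 higher, where 2729 of 20577 genes were lower and 2033 higher. Besides Glo1 the higher ones include Gsr, glutathione reductase, at 15.7 to 22.1 CPM in C57BL/6J and 23.4 to 28.0 CPM in DBA/2J (log2 0.48 ± 0.07). Gstm5, a glutathione transferase of brain and testis, was lower at 72.4 to 87.1 CPM against 52.0 to 64.2 CPM (log2 -0.51 ± 0.07, corrected -0.26). Cholesterol synthesis genes had 6 of 21 lower and 0 higher (3 and 0 without the shallow libraries). On FPKM 10 were lower and 0 higher, where 30.1% of all genes were lower and 6.26% higher. Cyp51, lanosterol demethylase, was at 59.2 to 65.2 CPM against 42.6 to 49.3 CPM (log2 -0.41 ± 0.06).

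Genes of voltage-gated channels set how neurons fire and how cells handle potassium. Of 13 sodium and calcium channel alpha subunits 6 were higher and 1 lower, and the counts were 7 and 2 after the correction, 3 and 0 on FPKM and 3 and 1 without the shallow libraries. Cacna1e, the R-type calcium channel, had 261, 326 and 390 CPM in C57BL/6J and 435, 443 and 514 CPM in DBA/2J, with no overlap (log2 0.51 ± 0.11, corrected 0.32). Scn9a, a sodium channel, was the lower one, at 12.7 to 17.3 CPM against 9.76 to 11.2 CPM (log2 -0.51 ± 0.11), and its call ended on FPKM. Of 32 potassium channels 8 were higher and 3 lower, and without the shallow libraries 3 and 2. On FPKM 1 was higher and 10 lower, where 6.26% of all genes were higher and 30.1% lower. Kcnj10, the astrocytic inward rectifier Kir4.1 that buffers extracellular potassium, had 184, 192 and 227 CPM against 283, 307 and 323 CPM (log2 0.62 ± 0.08, edgeR adjusted p 1.11e-07), and was higher under each scaling (corrected 0.63, FPKM 0.43).

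Receptors and release genes of the synapse were read against the same background of 17.2% higher and 19.7% lower. On FPKM the background was 6.26% higher and 30.1% lower. Of 25 glutamate receptor subunits 6 were higher and 1 lower, and on FPKM 3 and 4. Grin3a, a modulatory NMDA receptor subunit, had 57.1, 67.0 and 75.7 CPM in C57BL/6J and 85.7, 88.2 and 100.6 CPM in DBA/2J, with no overlap (log2 0.42 ± 0.08, corrected 0.36, edgeR adjusted p 9.86e-05). Of 18 GABA receptor subunits 4 were higher and 2 lower (2 and 1 without the shallow libraries, 5 and 1 after the correction), but on FPKM 1 was higher and 3 lower. Gabbr1, a GABA-B subunit, was at 572 to 628 CPM against 489 to 566 CPM (log2 -0.19 ± 0.05). Of 25 synaptic vesicle genes 6 were higher and 3 lower (3 and 1 without the shallow libraries), but on FPKM 3 were higher and 6 lower. The higher ones include the active zone scaffold Pclo (log2 0.53 ± 0.10, corrected 0.29). Of 22 immediate early genes 3 were higher and 0 lower, but on FPKM 0 were higher and 6 lower, and after the correction 6 and 0. Homer1, a scaffold of metabotropic receptors, had log2 0.43 ± 0.09. That call ended on FPKM.

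Clock and immune lists also held single genes with clear differences. Of 17 circadian genes 2 were higher and 4 lower, near the shares over all genes (17.2% higher, 19.7% lower). Arntl (log2 0.33 ± 0.07) and Per3 (0.41 ± 0.10) were higher and Dbp (-0.48 ± 0.11) and Bhlhe41 (-0.41 ± 0.06) lower, and the labels name no hour of dissection for a library. H2-Q4, a non-classical class I histocompatibility gene, had 24.5, 31.6 and 44.9 CPM in C57BL/6J and 109, 140 and 148 CPM in DBA/2J, with no overlap (log2 2.04 ± 0.19). The strains carry different haplotypes of this locus and class I genes are near-identical, so its level is uncertain. In the list of 17 class I and antigen presentation genes H2-Q4 was the 1 higher member and 4 were lower (1 without the shallow libraries). These counts stand against the same shares over all genes. The lower ones include H2-T24 (log2 -0.72 ± 0.13).

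The strain difference was also taken within each sex. In males 3866 genes passed (19.6%) and in females 5016 (25.5%), with 3 against 3 libraries in each. The difference itself differed between the sexes in 2 of 19702 genes (0.0102%), with 1643 at an unadjusted p under 0.05 and 5 by DESeq2's test. Sfi1 had 25.5, 26.2 and 31.1 CPM in C57BL/6J males and 16.1, 17.3 and 17.6 CPM in females. In DBA/2J it had 130, 135 and 141 CPM in males and 166, 181 and 197 CPM in females, so the order of the sexes differed between the strains. Its strain difference was larger in females by log2 1.12 ± 0.20 (edgeR adjusted p 0.0279). Ide, the insulin-degrading enzyme, had 83.6, 56.8 and 71.4 CPM in C57BL/6J males and 38.0, 38.5 and 41.4 CPM in females. All 6 DBA/2J libraries lay between 38.9 and 45.7 CPM. Ide is on the variant list, and the part of variants that differ between single C57BL/6J mice was not tested. Its strain difference was log2 -0.78 ± 0.10 in males and 0.12 ± 0.11 in females, and these differed by 0.90 ± 0.15 (edgeR adjusted p 0.0188). With only the 12 libraries in the fit 44 genes passed this test, and without the 3 shallow libraries 0 did by edgeR, with 1209 at an unadjusted p under 0.05. With single libraries left out, both calls were kept without DBA/2J female replicate 3. One of the pair was kept without C57BL/6J male replicate 2, C57BL/6J female replicate 3 or DBA/2J female replicate 2, and neither without any other library.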

How the data were processed

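Hippocampal RNA of 36 mice was sequenced on an Illumina instrument with 6 libraries per lane, per the labels' protocols. Raw read counts per Ensembl gene and FPKM values (fragments scaled by transcript length and library size) were deposited by the authors, 1 table per strain, per the file headers. The submitters' processing notes name Trimmomatic 0.32, TopHat2 2.0.13, SAMtools, DESeq2 1.8.1, Cufflinks 2.1.1 and GRCm38. The read counter, its strand setting and its handling of reads that match several places are not stated there, so antisense and multi-copy genes are uncertain. GRCm38 derives from C57BL/6J, and whether DBA/2J reads aligned less well to it was not tested.

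Counts of all 36 libraries, joined by Ensembl identifier, entered 1 edgeR 4.0.16 quasi-likelihood fit (R 4.3.3, TMM scaling, 12 groups of strain and sex, 24 residual degrees of freedom), after a filter at a minimum count of 10 and total of 15. The contrast was DBA/2J minus C57BL/6J with equal weight on the sexes, and p-values were Benjamini-Hochberg adjusted over 19702 genes at 0.05. A level is in CPM, and an error after a log2 difference is a standard error. A bound on a fold uses a floor of 3 counts over the 6 libraries of the strain at 0. Depth was 6493512 to 23880351 counts in the 12 libraries, and bounds cover counting error only.

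Alternatives were DESeq2 1.42.0 (size factors, and its own test), limma 3.58.1 on log2-transformed FPKM (pseudocount 0.1 or 1), other count filters, a replicate term, the 12 libraries alone, random thinning, removal of the 3 shallow libraries, a loess correction (span 0.5) for GC content and transcript length, which covered 97.2% of tested genes, and each library left out. FPKM differences are on the log2(FPKM + 0.1) scale. The statistics were tested on simulated data.

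Members and gene lists were chosen with earlier results of these data known. Named genes were, among genes called and without overlap, up to 12 protein-coding genes per direction with the largest change at 2 CPM or more, 6 at 50 CPM or more and 3 other RNAs, then up to 4 per list by p, all variant genes, genes whose difference differed between sexes, and members of long neighbour runs. Examples of genes that set 1 or 2 strains apart were chosen after their values were seen. So were Lrrc17, Dcaf1, Serpina3n, Serpina3g, Serpina3i, Ucp2, Gh, Gm25471, Gm26032, Gm22255, Snord49a and P2ry12. Some genes are not reported here. Each library is 1 animal, so p-values measure the spread between animals.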

Additional observations from a re-analysis of the deposited data

Results flagged for a closer look

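Within each strain the 6 libraries of most named genes were examined for 1 library far from the others. Of 184 groups 11 held one, where chance gives about 1 in 20. DBA/2J male replicate 1, the library nearest to C57BL/6J on the first principal component, was the highest of its strain in 3 of them. It had 37.3 CPM of Lrrc17 where the others had 8.24 to 14.5, 11.1 CPM of Cyp2e1 where the others had 2.83 to 5.46, and 4.55 CPM of Snord49a where the others had 0.44 to 1.42.

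C57BL/6J male replicate 3, the shallowest library of that strain, was the highest in 4. It had 9.86 CPM of Cdh24 (others 3.91 to 5.18), 0.276 CPM of Serpina3e-ps (others 0.04 to 0.11), 12.7 CPM of Gm25471 (others 5.44 to 8.03) and 12.6 CPM of Gm26032 (others 5.22 to 7.91), and these last genes have the same sequence.

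The other 4 were spread over libraries. Fcrls was lowest in DBA/2J male replicate 2 at 3.08 CPM (others 4.78 to 5.67). Glo1 was highest in DBA/2J female replicate 1 at 196 CPM (others 172 to 180.0), as was Myo7a at 7.79 CPM (others 1.07 to 3.31). Gh was highest in C57BL/6J male replicate 2 at 39.8 CPM (others 0 to 11.2).

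The strain difference of 2 genes differed between the sexes by the interaction term of the edgeR fit. For Ide the difference in females exceeded that in males by log2 0.897 (adjusted p 0.0188), and for Sfi1 by log2 1.12 (adjusted p 0.0279). Both calls ended without the 3 shallow libraries, and for Ide the part of variants that differ between single mice was not tested.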

How the results depend on the processing

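Genes that differed between the strains numbered 6353 to 7253 when each library was left out, against 7268 with all. They numbered 7348 with DESeq2's size factors, 7377 by DESeq2's test, 8300 with only the 12 libraries, 5486 after thinning and 4762 without the 3 shallow DBA/2J libraries. In males 3866 became 2468 and in females 5016 became 2308 without those 3, and leaving out single libraries gave 2513 to 3830 in males, lowest without DBA/2J male replicate 3, and 3508 to 4988 in females. These fits have fewer samples. Genes whose strain difference differed between the sexes, 2 in all, numbered 44 with only the 12 libraries, 5 by DESeq2's test, 9 and 8 on FPKM plus 0.1 and plus 1, 1 after the GC and length correction, 0 without the shallow libraries, and 0 to 2 with single libraries left out. The cause of the first 4 was not tested.

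Same-numbered libraries of different groups did not deviate together over the tested genes (correlations -0.15 to 0.09). These correlations cannot show whether the numbers pair animals, and the main fit had no replicate term. With the replicate number as a block 7215 genes passed, 7115 of them among the 7268.

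Among 90 of the called genes named here none changed direction under the alternatives run. On FPKM plus 0.1 the calls of 6 of these 90 ended, without the shallow libraries 3, and under any other alternative at most 3, except 7 on FPKM plus 1. The shallow libraries limit what can be said of genes under about 1 CPM in DBA/2J.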
